A study of Mus musculus with 6 samples.

Results

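The autophagy and lysosome genes described here are 40 mouse genes that encode the machinery of autophagosome formation, the transcription factors known to drive it, and enzymes and membrane proteins of the lysosome. The rule that picked them is a list of symbols with no cut-off on a measured value, although earlier results of these data were known when it was drawn up, and their Ensembl identifiers were looked up in the GENCODE M21 annotation. All 40 were among the 29616 genes of the deposited table, and all 40 passed the minimum of 10 normalized counts, on average over the libraries, that 17442 genes met. By role they fall into 23 genes of autophagy, 3 genes of the MiT/TFE transcription factors and 14 genes of the lysosome.

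In autophagy, a double membrane closes around cytoplasm and delivers it to the lysosome for breakdown. The ULK1 kinase complex and the Beclin-1 lipid kinase complex start the membrane, ATG9A vesicles and WIPI proteins help it to grow, and ubiquitin-like enzymes attach LC3 and GABARAP proteins to it, which cargo receptors such as p62 bind. The lysosome then digests the content with acid hydrolases, and the transcription factors TFEB, TFE3 and MITF are known to bind a short E-box element, TCACGTGA at its core, in the promoters of many of these genes. In bone, autophagy has been studied in osteoblasts and osteocytes, and lysosomal hydrolases such as cathepsin K are released by osteoclasts to degrade the matrix.

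The libraries were made from cells of C57BL/6 mice, 3 from control mice and 3 from mice given the synthetic glucocorticoid dexamethasone, to ask how the drug alters gene expression in these cells. The mice were 8 weeks of age when treatment began, and the treated mice received 0.08 µg dexamethasone per g each day over 4 weeks. The labels call the material bone cells, and the study describes it as Osteocalcin-positive cells from bones freed of marrow. Saline is the control given in the study's descriptions of its dexamethasone-treated mice. No transgene or Cre is named for these libraries, and it is not stated whether 1 library stands for 1 mouse or for pooled mice.

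The deposited values are read counts divided by a size factor per library, called normalized counts below. The libraries held between 72596611 and 89910728 reads. A gene is said to have risen or fallen where limma, adjusted over all tested genes, gave a p-value under 0.05, and is called differentially expressed where its log2 fold change was also 1 or more in size. SE is the standard error of the log2 fold change. Fold changes are dexamethasone over control on the scale of log2(normalized count + 1), and p-values measure the spread between these libraries, which may be technical. Libraries of the same group differed by more than counting noise (chi-square over degrees of freedom 3.27 to 26.1), and the pairs with dexamethasone replicate 3 gave the highest values, 18.1 and 26.1. Among the osteoblast lineage markers the type I collagen gene Col1a1 had 926459.5, 968159 and 991151 normalized counts in the control libraries and 281338, 254901 and 247337 in the dexamethasone libraries, whereas the Osteocalcin gene Bglap, which names the isolated cells, had 98.2, 102 and 122 and 9.54, 12 and 15.1. Reads of Bglap are uncertain, since it has near-identical copies in Bglap2 and Bglap3. Of 11 osteoblast lineage markers 8 fell, and Spp1, Dmp1 and Phex rose, with log2 fold changes of 5.25, 7.16 and 0.60. Spp1 went from a mean of 33595 to 1279674 normalized counts, and Dmp1 from 38.5 to 5639. Summed, the 11 markers had 2009100 to 2137794 normalized counts in the control libraries and 2010803 to 2142748 in the dexamethasone libraries. In CPM, a scale defined below, the sums did not overlap, at 26358 to 27534 and 24389 to 24984, a ratio of 0.916. These sums join opposite changes. Spp1 rose, while the mean of Col1a1 fell from 961923 to 261192 normalized counts and that of Col1a2 from 1065431 to 516035. In RNA from many cells, fewer cells of a type and less RNA per cell cannot be told apart.

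Promoter sequences show the element that the MiT/TFE factors are known for, and they are given here for the members that hold the most copies or the 8-letter form. RefSeq promoter windows of GRCm38.p6, from 250 bases before to 50 bases after the annotated start, were found for 35 of the 40 members, in 44 windows. Becn1, Map1lc3a, Atg12, Atg16l1 and Ctsb had no entry. The letters TCACGTGA occurred in 6 of the 44 windows, or 13.6%, and in 0.974% of all 32851 windows. The shorter CACGTG, which lies inside the longer motif, occurred in 11 of the 44 windows, or 25%, and in 7.15% of all windows. Both are palindromes and read the same on either strand. Capitals below mark CACGTG and, where the flanking letters are also present, TCACGTGA. The stretches are 5′ to 3′ on the gene's strand, at chr8:13159061-13159160 (+) for Lamp1, chr2:164833713-164833787 (+) for Ctsa, chr7:126583316-126583406 (-) for Cln3, chr7:142387887-142387957 (-) for Ctsd, chr8:3500419-3500499 (+) for Mcoln1, chrX:134601165-134601255 (-) for Gla and chr16:45158719-45158789 (+) for Atg3.
Lamp1: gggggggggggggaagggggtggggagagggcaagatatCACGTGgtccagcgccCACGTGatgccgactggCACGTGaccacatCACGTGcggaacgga
Ctsa: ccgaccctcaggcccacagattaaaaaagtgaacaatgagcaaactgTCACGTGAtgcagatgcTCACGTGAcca
Cln3: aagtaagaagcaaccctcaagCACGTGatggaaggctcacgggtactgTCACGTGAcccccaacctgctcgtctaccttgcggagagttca
Ctsd: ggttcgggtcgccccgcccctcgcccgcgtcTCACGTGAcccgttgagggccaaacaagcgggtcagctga
Mcoln1: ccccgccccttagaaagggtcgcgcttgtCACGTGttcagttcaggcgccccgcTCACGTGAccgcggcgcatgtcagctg
Gla: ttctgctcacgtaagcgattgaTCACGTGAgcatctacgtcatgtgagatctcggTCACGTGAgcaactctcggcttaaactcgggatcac
Atg3: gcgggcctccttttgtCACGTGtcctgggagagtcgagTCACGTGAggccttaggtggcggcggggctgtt

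Lamp1 carried 4 copies of CACGTG within the 100 bases before its start, at -61, -45, -28 and -15 from the annotated start (the first letter of each copy, negative before the start), none of them in the 8-letter form. Ctsa carried 2 copies of the 8-letter form, at -13 and 5, and Gla carried 2 before it, at -228 and -195. A match describes letters in a window and says nothing of whether a factor is bound there.

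As a group, the members leaned toward lower levels with dexamethasone, mostly by modest amounts, and the lysosome genes had the lower median. Of the 40 members, 22 fell and 7 rose, with 11 not past the threshold. This compares with 35.2% of all tested genes that fell and 37.2% that rose, against 55% and 17.5% of the members. The median log2 fold change of the members was -0.18, or 88.4% of the control level, where that of all tested genes was 0.000712. After quantile normalization of the libraries the split was 31 lower and 5 higher, and the median was -0.35, where that of all tested genes was -0.07, a distance of -0.28. The shares of all tested genes that fell or rose after quantile normalization are not reported here. Only 3 members were differentially expressed, all of them lower and all of the lysosome (Neu1, Hexa and Cln3), where 10.6% of all tested genes were called lower. Upward, limma, edgeR and DESeq2 each called 0 members, where limma called 11.7% of all tested genes. The highest limma value was 0.81 for Mitf, so that 0 members also reached the fold change of 1 at an unadjusted p under 0.05. Control and dexamethasone libraries did not overlap for 31 of the 40 members, 8 higher and 23 lower, a share close to the 74.7% of all tested genes.

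**Figure D1:**
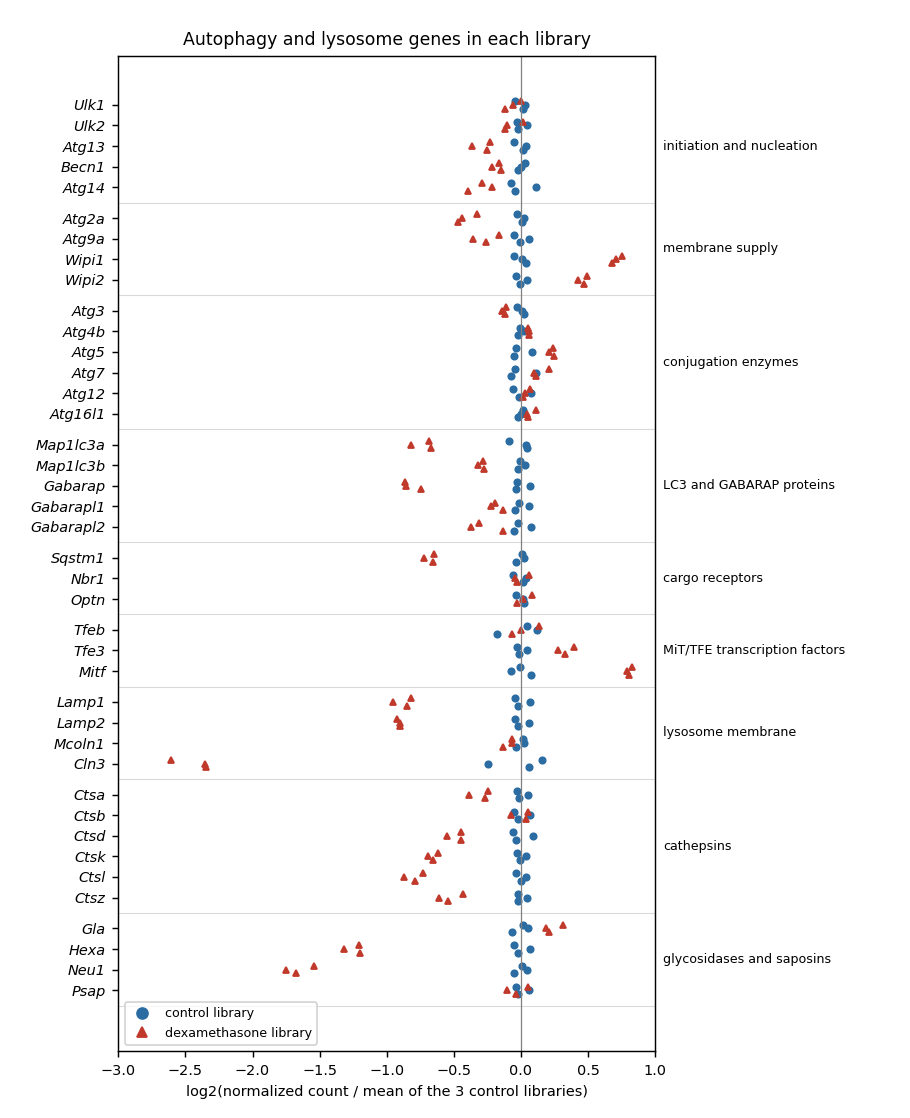
Level of each of the 40 members in each library, as log2 of the normalized count over the mean of the 3 control libraries, with circles for control and triangles for dexamethasone and the members grouped by role. The triangles of Cln3, Neu1 and Hexa lie farthest to the left, and those of Mitf and Wipi1 farthest to the right.

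Of the 14 lysosome members 10 fell and 1 rose, with a median log2 fold change of -0.59, and of the 23 autophagy members 12 fell and 4 rose, with a median of -0.12. Summed over all 40 members, the level was 9026 to 9290 CPM in the control libraries and 6299 to 6489 in the dexamethasone libraries. The ratio was 0.701. CPM, reads per 1000000 reads of the library, sets all libraries to the same total. At the same total the median log2 fold change of all tested genes was -0.11. In normalized counts the sums were 694756 to 738000 and 518551 to 556545. The 4 lysosome membrane genes alone summed to 2034 to 2106 and 1036 to 1050 CPM, a ratio of 0.506. In normalized counts these were 155837 to 167323 and 85321 to 89322.

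**Figure D2:**
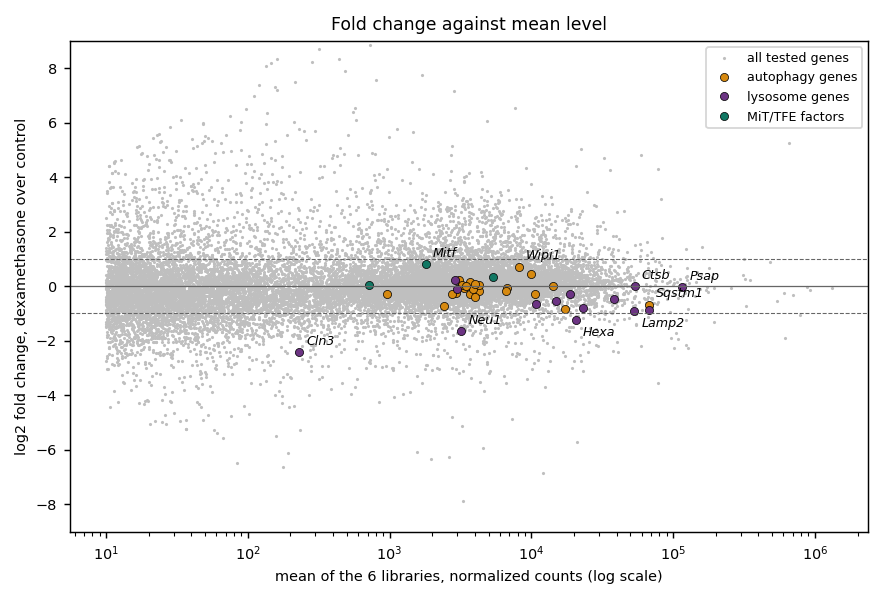
Log2 fold change of dexamethasone over control against the mean normalized count of the 6 libraries on a log axis, for all 17442 tested genes in grey and the 40 members in colour, with dashed lines at a log2 fold change of 1 and -1. The 3 members under the lower line are Cln3, Neu1 and Hexa, and Psap and Ctsb lie at the zero line among the members with the highest counts.

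Among the glycosidases and saposins, Neu1 and Hexa were lower in every dexamethasone library. Neu1 (ENSMUSG00000007038), the lysosomal sialidase that removes terminal sialic acid, had 4869, 5005 and 4684 normalized counts in the control libraries and 1670.3, 1439 and 1519 with dexamethasone. All 3 dexamethasone libraries lay far under the lowest control library. The level fell from 4853 ± 161 to 1543 ± 118 normalized counts (mean ± SD, n = 3), a log2 fold change of -1.66 (SE 0.0484, adjusted p = 4.87e-20 by limma), which left 31.8% of the control level. Hexa (ENSMUSG00000025232), the alpha subunit of beta-hexosaminidase, which degrades GM2 ganglioside, had 27814, 30258 and 28466 normalized counts in the control libraries and 12476, 11569.6 and 12562 with dexamethasone. Its level fell to 42.3% of control, a log2 fold change of -1.24 (SE 0.0398, adjusted p = 3.32e-19 by limma). The groups did not overlap. In the annotation 12.8% of the exon bases of Hexa lie under Tmem202 on the opposite strand, and whether the count used strand is not given in the sources used here.

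The other members of this role did not follow. Psap, the precursor of the saposins that help these enzymes reach their lipids, was the member with the highest count and had 113952, 121879.6 and 115649.5 normalized counts in the control libraries and 121249, 109210.0 and 114298 with dexamethasone. The groups overlapped, and its log2 fold change of -0.03 had a 95% interval of -0.13 to 0.07 (adjusted p = 0.598 by limma), while at the same total it was called lower, at -0.14 (adjusted p = 0.000351). Gla, the alpha-galactosidase that removes galactose from globotriaosylceramide, rose from 2644 ± 112 to 3118 ± 150.4 normalized counts, a log2 fold change of 0.24 (adjusted p = 4.20e-05 by limma), which was 0.08 (adjusted p = 0.0751) after quantile normalization. Glb1, the beta-galactosidase that forms a complex with NEU1 and cathepsin A, was named after its value was seen and fell to 65.7% of control, with a log2 fold change of -0.61 (adjusted p = 6.71e-14 by limma).

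**Figure D3:**
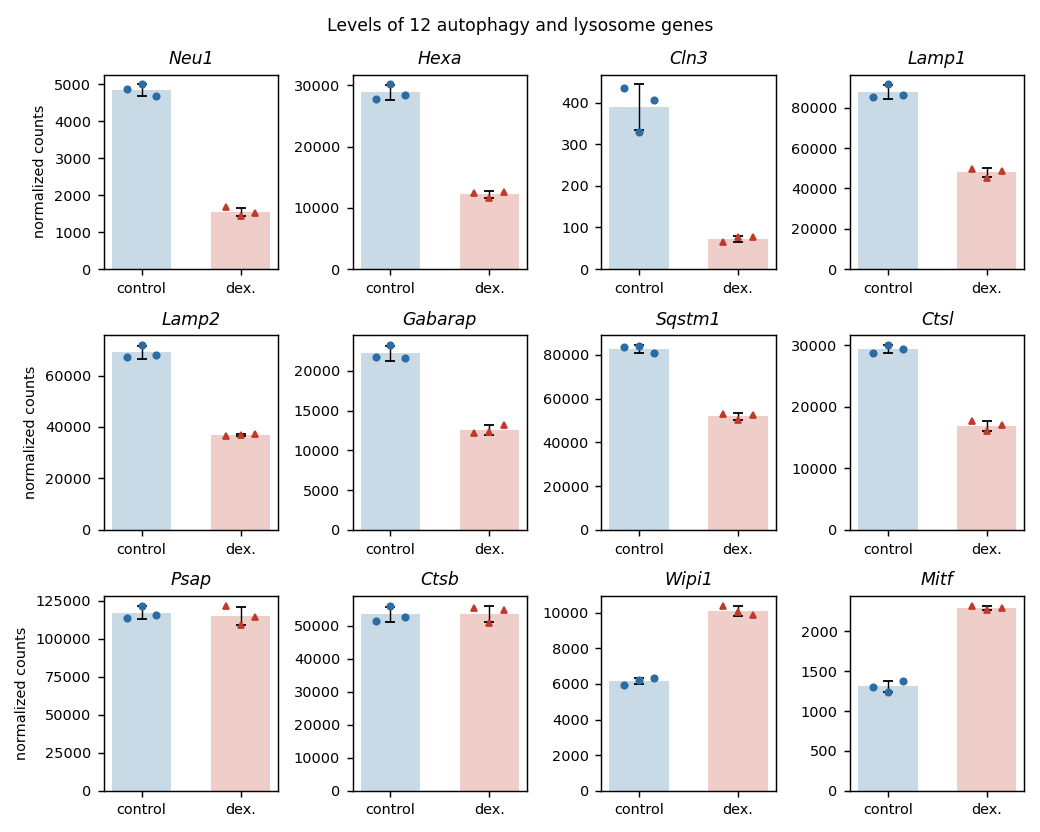
Normalized counts of 12 members, with bars for the mean of the 3 libraries of a group, error bars for the SD and a point for each library. Neu1, Hexa, Cln3, Lamp1, Lamp2, Gabarap, Sqstm1 and Ctsl show dexamethasone points under every control point, Psap and Ctsb show overlapping groups, and Wipi1 and Mitf show dexamethasone points above every control point.

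All 4 lysosome membrane members had their dexamethasone libraries under every control library, and 3 of them fell. Lamp1 and Lamp2 encode the heavily glycosylated proteins that line the inner face of the lysosomal membrane. Lamp1 had 85154, 91840.5 and 86325 normalized counts in the control libraries and 49807, 45354 and 48641 with dexamethasone. This left 54.6% of the control level, a log2 fold change of -0.87 (SE 0.0435, adjusted p = 3.23e-15 by limma). Lamp2 had 67105, 72007 and 68180.5 normalized counts in the control libraries and 36489, 36923 and 37089 with dexamethasone, a log2 fold change of -0.91 (SE 0.0386, adjusted p = 1.23e-16 by limma). Neither was differentially expressed, although Lamp2 reached -1.02 when all libraries were scaled to the same total. For Lamp1, 9.31% of the exon bases lie under Grtp1 on the opposite strand.

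Cln3 and Mcoln1 stood at either end of this role. Cln3 (ENSMUSG00000030720), a lysosomal membrane protein whose loss causes juvenile neuronal ceroid lipofuscinosis, was the member with the lowest count per length and had 435, 329 and 406 normalized counts in the control libraries and 63.9, 76.3 and 76.7 with dexamethasone. The highest dexamethasone library, at 76.7, lay far under the lowest control library, at 329. It fell from 390.0 ± 55 to 72.3 ± 7.28 normalized counts (mean ± SD, n = 3), a log2 fold change of -2.41 (SE 0.127, adjusted p = 1.08e-14 by limma), the lowest of all members, and 7.65% of its exon bases lie under Apobr on the opposite strand. Mcoln1, the calcium channel of the lysosomal membrane also known as TRPML1, had a log2 fold change of -0.09 with a 95% interval of -0.17 to -0.00452 (adjusted p = 0.0543 by limma). It was called lower by edgeR (adjusted p = 0.00737) and by DESeq2 (adjusted p = 0.0369).

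The cathepsins, the proteases of the lysosome, fell in 5 of 6 cases, with a median log2 fold change of -0.51. Ctsl, a cysteine protease, fell the most, from 29396 ± 699 to 16924 ± 812 normalized counts, a log2 fold change of -0.80 (adjusted p = 1.53e-15 by limma). Ctsk, the collagen-degrading protease best known from osteoclasts, had 12859, 13473 and 13107 normalized counts in the control libraries and 8572, 8128 and 8358 with dexamethasone. The groups did not overlap, and the log2 fold change was -0.65 (SE 0.0354, adjusted p = 1.68e-14 by limma). Ctsz, Ctsd and Ctsa, an exopeptidase, the main aspartic protease and the carboxypeptidase that shields NEU1, had log2 fold changes of -0.53, -0.48 and -0.30, with adjusted p-values by limma of 1.85e-11, 2.31e-10 and 2.09e-07.

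Ctsb, another cysteine protease and the cathepsin with the highest count, was the exception. It had 51478, 56160.3 and 52781 normalized counts in the control libraries and 55411, 50759 and 54802 with dexamethasone. The groups overlapped, and its log2 fold change of 0.00485 had a 95% interval of -0.08 to 0.09 (adjusted p = 0.927 by limma). It was called lower with the libraries scaled to the same total, at -0.11 (adjusted p = 0.00233), and after quantile normalization, at -0.07 (adjusted p = 0.0308). A transcript on the same strand, Gm49369, covers 34.4% of the exon bases of Ctsd, so that its count is uncertain. Genes on the opposite strand cover 26.9% of the exon bases of Ctsl, 17.4% of those of Ctsa and 12.8% of those of Ctsb.

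Cathepsins are also abundant in osteoclasts and macrophages, so the markers of these cells were read beside them. The osteoclast markers Acp5, Calcr and Tnfrsf11a, the first of which encodes tartrate-resistant acid phosphatase, had at most 4 reads in each control library, and Acp5 had 0. With dexamethasone Acp5 had 7, 26 and 17 reads, whereas Calcr stayed at 0, 0 and 1 and Tnfrsf11a at 0, 2 and 1. Oscar and Ocstamp were also too low to be tested. Control reads of Oscar were 14, 7 and 3, against 6, 12 and 6 under dexamethasone. Those of Ocstamp were 0, 6 and 1, against 20, 6 and 14. Of the 4 osteoclast markers that could be tested, Siglec15 and Itgb3 were differentially expressed upward, with log2 fold changes of 3.56 and 1.85 (adjusted p = 1.31e-08 and 5.07e-22 by limma), Mmp9 downward, with -1.16 (adjusted p = 0.00739 by limma), and Nfatc1 was not past the threshold at -0.08 (adjusted p = 0.0694 by limma). Summed, the 9 osteoclast markers of the table made up 88.4 to 92.9 CPM in the control libraries and 153 to 160 in the dexamethasone libraries, most of which came from Itgb3 and Nfatc1, while Ctsk fell. The 8 macrophage and monocyte markers summed to 18.7 to 19.6 and to 18 to 19.8 CPM, with Cd68, Cd14 and Mrc1 higher and Lyz2 and Csf1r lower. The part of these cells in the levels of the members was not tested.

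The LC3 and GABARAP proteins, which are joined to the lipid of the growing membrane and mark autophagosomes, all fell. None of the 5 genes had a dexamethasone library above its lowest control library, and the median log2 fold change was -0.29. Gabarap had 21689, 23276 and 21579.8 normalized counts in the control libraries and 12173, 12258 and 13237 with dexamethasone. The level fell to 56.6% of control, a log2 fold change of -0.82 (SE 0.0396, adjusted p = 1.65e-15 by limma). Map1lc3a, which encodes LC3A, fell from 3011 ± 151 to 1822 ± 103 normalized counts, a log2 fold change of -0.72 (adjusted p = 1.21e-12 by limma). Map1lc3b, the LC3B gene most used as an autophagosome marker, fell less, from 11738 ± 209 to 9585 ± 156 normalized counts, a log2 fold change of -0.29 (adjusted p = 3.83e-08 by limma). The GABARAP-like genes Gabarapl2 and Gabarapl1 had log2 fold changes of -0.27 and -0.18, with adjusted p-values by limma of 5.28e-05 and 0.000164. For Gabarapl1, 28.3% of the exon bases lie under a transcript on the opposite strand, and 90.5% of the 75-base stretches of Gabarapl2 were found in no other gene. Together the 5 genes summed to 592.8 to 615.6 CPM in the control libraries and 377 to 403 in the dexamethasone libraries.

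Of the cargo receptors, which link ubiquitinated cargo to these proteins, Sqstm1 fell, while Nbr1 and Optn were called lower only under other scalings of the libraries. Sqstm1, the gene of p62, had 83467, 84311 and 80787 normalized counts in the control libraries and 52961, 50261 and 52506 with dexamethasone. The groups did not overlap, and the level fell to 62.7% of control, a log2 fold change of -0.67 (SE 0.0397, adjusted p = 9.37e-14 by limma). Mrnip on the opposite strand covers 17.3% of its exon bases. Nbr1, a receptor related to p62, and Optn, the receptor optineurin, had overlapping groups and log2 fold changes of -0.00488 (95% interval -0.08 to 0.07) and 0.02 (95% interval -0.06 to 0.10), with adjusted p-values by limma of 0.916 and 0.665. Both were called lower under other scalings. At the same total Nbr1 had a value of -0.12 (adjusted p = 0.000651) and Optn one of -0.09 (adjusted p = 0.0178), and after quantile normalization these were -0.22 (adjusted p = 2.81e-07) and -0.13 (adjusted p = 0.00134).

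Among the 5 genes that start the membrane, Atg13, Atg14 and Becn1 fell and the ULK kinases were not past the threshold. Ulk2, the kinase with the higher count, had 6722, 7078 and 6736 normalized counts in the control libraries and 6919.6, 6364 and 6307 with dexamethasone. The groups overlapped, with dexamethasone replicate 1 inside the control range, and the log2 fold change was -0.07 (adjusted p = 0.123 by limma), against -0.06 (adjusted p = 0.194 by limma) for Ulk1. Without dexamethasone replicate 1 both were past the threshold, at -0.11 for Ulk2 (adjusted p = 0.0066) and -0.09 for Ulk1 (adjusted p = 0.0497). Atg13, the scaffold of the ULK1 complex, fell from 4076 ± 137 to 3352 ± 158 normalized counts, a log2 fold change of -0.28 (adjusted p = 1.75e-06 by limma). Atg14 and Becn1, subunits of the lipid kinase complex, had log2 fold changes of -0.30 and -0.17, with adjusted p-values by limma of 0.000151 and 0.000208. Cntd1 on the opposite strand covers 43.9% of the exon bases of Becn1, whose count is therefore uncertain, and 5.53% of those of Atg14 lie under another transcript on that strand.

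The genes of membrane supply split evenly. Wipi1 and Wipi2, which read the lipid signal of the nascent membrane, rose, while Atg2a and Atg9a, a lipid transfer protein and the membrane protein of the vesicles that seed it, fell. Wipi2 had 8228, 8684 and 8382 normalized counts in the control libraries and 11858, 11295 and 11679 with dexamethasone. All 3 dexamethasone libraries lay above the highest control library, and the log2 fold change was 0.46 (SE 0.0356, adjusted p = 1.97e-11 by limma). Wipi1 rose further, to 164% of control, with 5948, 6201 and 6321 normalized counts in the control libraries and 10399, 10042 and 9842 with dexamethasone and a log2 fold change of 0.71 (SE 0.0366, adjusted p = 5.77e-15 by limma). Atg2a and Atg9a had log2 fold changes of -0.41 and -0.26, with adjusted p-values by limma of 2.16e-09 and 2.93e-05, and a transcript on the same strand, Gm29253, covers 31.8% of the exon bases of Atg9a.

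The conjugation enzymes, which process LC3 and GABARAP and attach them to lipid, moved little. Atg5, a part of the ligase that completes the attachment, rose from 2832 ± 147 to 3323 ± 39.5 normalized counts, a log2 fold change of 0.23 (adjusted p = 2.96e-05 by limma). Atg7, the activating enzyme at the head of the pathway, rose by 0.14 on the log2 scale (adjusted p = 0.00894 by limma), but its groups overlapped. At the same total its value was 0.03 (adjusted p = 0.527), and without control replicate 3 it was 0.11 (adjusted p = 0.0805). Atg3, the conjugating enzyme, fell, with a log2 fold change of -0.12 (adjusted p = 0.00518 by limma). Atg4b, the protease that trims the LC3 precursor, had the highest count of this role, with 4193, 4276 and 4145 normalized counts in the control libraries and 4358, 4386 and 4376 with dexamethasone. Its groups did not overlap, but the log2 fold change was 0.06 (adjusted p = 0.164 by limma). Atg12 and Atg16l1, the partners of ATG5 in the ligase, had values of 0.04 and 0.07, with adjusted p-values by limma of 0.417 and 0.0969, and all of Atg4b, Atg12 and Atg16l1 turned to values under 0 when libraries were scaled to the same total. After quantile normalization these were called lower, with values of -0.11, -0.11 and -0.09 and adjusted p-values of 0.00323, 0.00651 and 0.0147.

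Of the MiT/TFE factors, Mitf and Tfe3 rose and Tfeb was not past the threshold. Tfe3, the factor with the highest count, had 4632, 4875 and 4689 normalized counts in the control libraries and 6219, 5727 and 5951 with dexamethasone. The groups did not overlap, and the log2 fold change was 0.33 (SE 0.0388, adjusted p = 3.46e-08 by limma). Mitf, also known as the regulator of melanocytes and osteoclasts, had 1305, 1242 and 1379.7 normalized counts in the control libraries and 2325, 2267 and 2291 with dexamethasone. It rose to 175% of control, a log2 fold change of 0.81 (SE 0.0477, adjusted p = 9.42e-14 by limma), the highest of all members. Tfeb had 731, 771 and 628 normalized counts in the control libraries and 777, 712 and 678 with dexamethasone, with overlapping groups and a log2 fold change of 0.03 (95% interval -0.12 to 0.18, adjusted p = 0.749 by limma), which was -0.09 at the same total. These are levels of RNA, and the activity of the factors is known to depend largely on whether they enter the nucleus, which was not measured.

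The members whose promoter windows held the 8-letter motif did not share a direction. Cln3, Ctsd, Ctsa and Atg3 fell, with log2 fold changes of -2.41, -0.48, -0.30 and -0.12. Mcoln1 was not past the threshold at -0.09, and Gla rose by 0.24. Of the members with the shorter CACGTG only, Lamp1, Ctsl and Atg14 fell, and Atg5 and Atg7 rose. Neu1 and Hexa, the other differentially expressed members, held neither motif in their windows. Cln3 and Ctsa each also had a further window with neither motif, and which start is used in these cells was not tested.

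**Figure D4:**
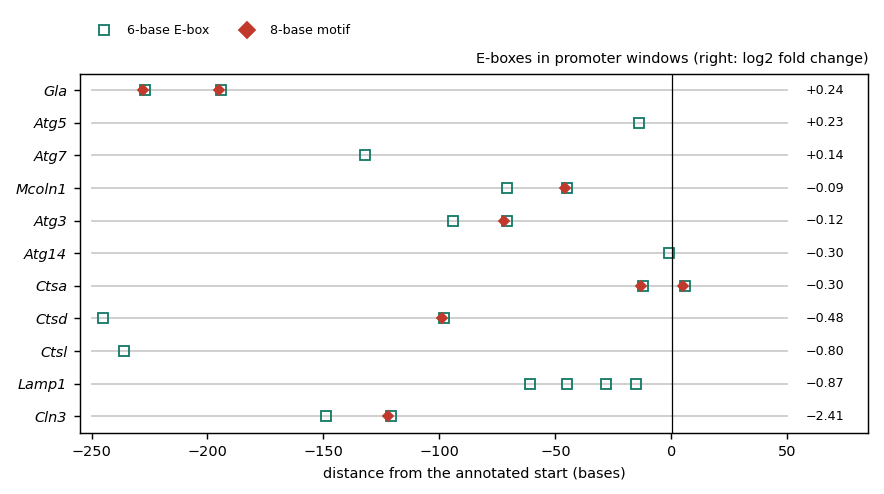
Position of CACGTG (open squares) and TCACGTGA (filled diamonds) in the promoter windows of the 11 members that hold one, in bases from the annotated start, with each member's log2 fold change at the right. Members are ordered by fold change, and the 8-letter motif occurs from Cln3 at -2.41 up to Gla at 0.24.

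Per kilobase of exon, the order of levels in the control libraries was led by Psap at 42697 normalized counts per kb, Lamp1 at 32812, Sqstm1 at 24689, Ctsd at 19043 and Hexa at 14452. With dexamethasone Psap stood at 41880.1, Lamp1 at 17919, Sqstm1 at 15468 and Ctsd at 13615, while Ctsb at 8868, Ctsz at 8463 and Gabarap at 6809 all stood above Hexa at 6113. Cln3 at 67.5 and Tfeb at 125 had the lowest control levels per kb.

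The further hydrolases of the lysosome, a list of 38 genes with 34 tested, were mostly lower. Of the 34, 25 fell and 4 rose, or 73.5% and 11.8%, against 35.2% and 37.2% of all tested genes. Downward, 4 of them were differentially expressed, where 10.6% of all tested genes were. The median log2 fold change was -0.45. Among the largest decreases were those of Tpp1, a tripeptidyl peptidase, at -1.12 (adjusted p = 2.56e-19 by limma), and the cathepsin Ctso at -1.03 (adjusted p = 3.88e-16 by limma). Arsa, the arylsulfatase that degrades sulfatide, was also differentially expressed at -1.01 (adjusted p = 3.08e-16 by limma), with 18.8% of its exon bases under a transcript on the opposite strand. The largest increases were 0.38 for Arsb, which degrades dermatan sulfate and has 39.9% of its exon bases under other transcripts on the opposite strand, 0.36 for the phospholipase Pla2g15 and 0.21 for the sulfatase Galns, with adjusted p-values by limma of 4.22e-09, 1.38e-07 and 0.000151. After quantile normalization the value of Galns was 0.07 (adjusted p = 0.107). Summed, the list gave 4097 to 4204 CPM in the control libraries and 2677 to 2750 in the dexamethasone libraries.

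In the vacuolar ATPase, the proton pump that acidifies the lysosome, 13 of 20 tested subunit and accessory genes fell and 3 rose. These are 65% and 15%, against 35.2% and 37.2% of all tested genes, and the median log2 fold change was -0.38. Atp6v1a, the catalytic subunit, had the largest decrease, with 26424, 27974 and 26214 normalized counts in the control libraries and 14739.6, 14338 and 14402 with dexamethasone. Its log2 fold change was -0.89 (adjusted p = 3.97e-17 by limma), followed by -0.81 for the accessory gene Atp6ap1 and -0.78 for Atp6v0e, with adjusted p-values by limma of 1.64e-15 and 9.91e-15. Tcirg1, the a3 subunit used in the osteoclast ruffled border, rose by 0.32 (adjusted p = 1.38e-07 by limma), and Atp6v1b2 by 0.14 (adjusted p = 0.00105 by limma), which was 0.03 (adjusted p = 0.329) at the same total. Atp6v0d2, an osteoclast-enriched subunit named after its value was seen, rose from 5.14 ± 2.77 to 33 ± 9.34 normalized counts, a log2 fold change of 2.56 (adjusted p = 6.57e-06 by limma).

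Of 20 further lysosome membrane proteins and partners, 12 fell and 6 rose, with a median log2 fold change of -0.13. These are 60% and 30%, against 35.2% and 37.2% of all tested genes. Npc1 and Npc2, whose products move cholesterol out of the lysosome, both rose. Npc1 had 6007, 6154 and 5746 normalized counts in the control libraries and 12776, 11652 and 11727 with dexamethasone, a log2 fold change of 1.01 (adjusted p = 2.28e-17 by limma), with 5.31% of its exon bases under transcripts on the opposite strand. It was under the fold change of 1 in some alternatives, with a lowest value of 0.83. Npc2, its soluble partner, had a value of 0.65 (adjusted p = 4.21e-14 by limma), and Hgsnat, which acetylates heparan sulfate, one of 0.68 (adjusted p = 2.56e-14 by limma). The largest decreases were -0.96 for Laptm4a, -0.93 for Mfsd8 and -0.80 for Scarb2, the receptor that carries glucocerebrosidase to the lysosome, with adjusted p-values by limma of 1.38e-17, 2.45e-13 and 4.32e-16. The transporter gene Abcb9, named after its value was seen, was also differentially expressed upward from 5.83 ± 1.22 to 22.3 ± 6.44 normalized counts, with a log2 fold change of 1.75 (adjusted p = 0.000312 by limma).

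The further autophagy genes went both ways, much as all tested genes did. Of 29 genes 13 rose and 12 fell, with a median log2 fold change of 0.06. At 44.8% and 41.4%, these shares were near the 37.2% and 35.2% of all tested genes. Calcoco1, a receptor for ER-phagy, fell the most, with 4687, 5007 and 4747 normalized counts in the control libraries and 2306, 2001 and 2110.4 with dexamethasone and a log2 fold change of -1.17 (adjusted p = 3.25e-17 by limma). Nrbf2, of the Beclin-1 complex, and Rb1cc1, the FIP200 scaffold of the ULK1 complex, fell with values of -0.65 and -0.55 (adjusted p = 2.22e-12 and 7.20e-13 by limma), and only 45% of the 75-base stretches of Nrbf2 were found in no other gene. Snap29, a SNARE of autophagosome fusion, Vmp1, a lipid scramblase, and Atg101, of the ULK1 complex, rose by 0.59, 0.46 and 0.45, with adjusted p-values by limma of 6.43e-12, 1.56e-11 and 2.52e-07. Atg9b, named after its value was seen, rose from 13.3 ± 3.86 to 40.4 ± 3.03 normalized counts, a log2 fold change of 1.56 (adjusted p = 3.95e-05 by limma), and 7.45% of its exon bases lie under Nos3 on the opposite strand.

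The kinase mTORC1 sits on the lysosome and holds autophagy and the MiT/TFE factors in check when nutrients are plentiful. Of 26 tested genes of mTORC1, its nutrient sensors and its regulators, 15 fell and 8 rose, with a median log2 fold change of -0.17. These are 57.7% and 30.8%, against 35.2% and 37.2% of all tested genes. Deptor, an inhibitor of mTOR, had 2993, 3168 and 3084 normalized counts in the control libraries and 8170.1, 7275 and 7436 with dexamethasone. Its log2 fold change of 1.31 (adjusted p = 4.35e-19 by limma) was the only call upward at the fold change of 1. Rptor, the raptor subunit, and Fnip2, a partner of folliculin, rose by 0.47 and 0.40, with adjusted p-values by limma of 8.49e-11 and 5.45e-10. The sestrins, which restrain mTORC1 under stress or amino acid shortage, were lower in part, and Sesn1, named after its value was seen, was not past the threshold at 0.00644 (adjusted p = 0.911 by limma). Sesn3 had 27706, 28513 and 29031 normalized counts in the control libraries and 11826, 11172 and 11523 with dexamethasone, a log2 fold change of -1.30 (adjusted p = 1.17e-20 by limma). Sesn2 had a value of -0.89 (adjusted p = 4.57e-17 by limma), and Ddit4l, of the REDD family of mTORC1 inhibitors, one of -0.88 (adjusted p = 7.53e-11 by limma).

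**Figure D5:**
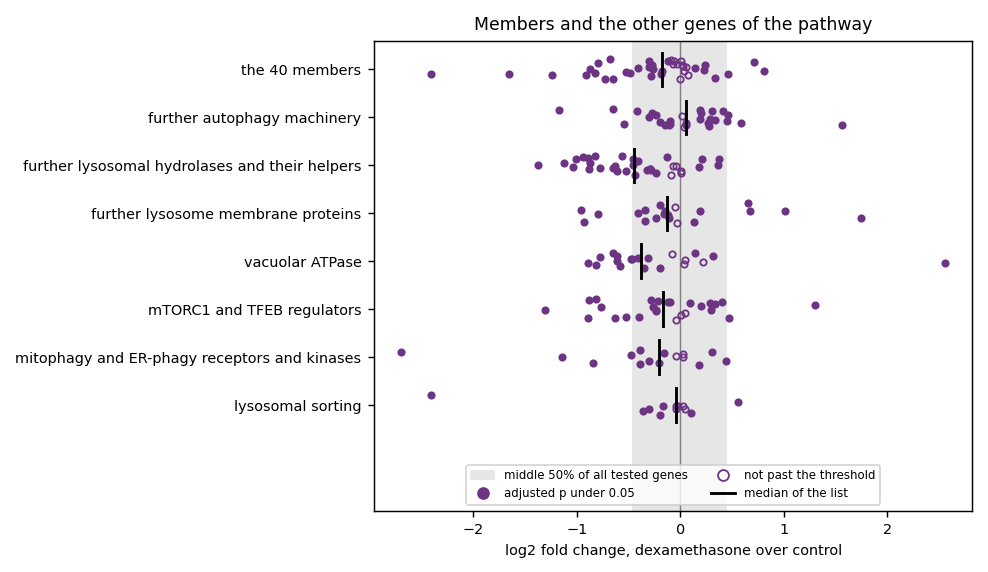
Log2 fold change of dexamethasone over control for each gene of the 40 members and of 7 lists of other autophagy and lysosome genes, with filled points past a limma adjusted p of 0.05, open points not past it, a bar at each median and a grey band over the middle 50% of all tested genes. The medians of the hydrolases at -0.45 and the vacuolar ATPase at -0.38 lie farthest to the left, and that of the further autophagy machinery lies at 0.06.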

How the data were processed

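Poly(A) RNA libraries were prepared with a stranded kit from total RNA of 6 bone cell samples. Per the study's methods, the authors aligned and counted the reads with STAR 2.7.10a and normalized them with DESeq2 1.36.0. The submitters' processing notes name the build GRCm39, while the sources used here do not give which annotation was counted, or whether with strand. The deposited values are a signal, gene counts divided by size factors, and 100% of them were whole multiples of 1 read (tolerance 0.001), from which reads were recovered (72596611 to 89910728 per library). Every column of the table was used. A count of 0 allows up to 3 reads, for counting error only.

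Of 29616 genes, 28087 had a symbol in GENCODE M21, and the 17442 genes that averaged 10 or more normalized counts were tested. Values were log2-transformed after adding 1, which makes the fold change of low genes smaller, and compared with limma 3.58.1 (R 4.3.3, with a mean-variance trend, libraries of each group as replicates) with p-values adjusted after Benjamini and Hochberg across those 17442 genes. The cut-offs were an adjusted p of 0.05 and, for differential expression, a log2 fold change of 1. Alternatives were edgeR 4.0.16 and DESeq2 1.42.0 on recovered reads, other pseudocounts, filters and scalings, a fit without the trend, a replicate block, and leaving out each library. The fitting scripts were tested on simulated data.

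The members, the lists of other genes and the marker lists were chosen with earlier results of these data known. Members were named with the value in every library where they were differentially expressed or had the highest mean of their role, or where the text turns on them. In each list of other genes, up to 3 genes with the largest increase and 3 with the largest decrease were named, at an adjusted p under 0.05 and a mean of at least 100 normalized counts. Some genes of these lists are not reported here. Genes outside this rule are said to have been named after their values were seen. Exon overlaps, 75-base stretches and levels per kb come from GENCODE M21, and promoter windows from RefSeq on GRCm38.p6, and neither was combined with coordinates of the authors' build.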

Additional observations from a re-analysis of the deposited data

How the results depend on the processing

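The members were recomputed under 16 alternatives, and 27 of the 40 kept direction and side of the threshold in all of them. The counts were 7 higher and 22 lower, with 3 differentially expressed. They were 6 and 29 (4 differentially expressed) with libraries scaled to the same total, 5 and 31 with quantile normalization, 7 and 25 with edgeR, 7 and 23 with DESeq2, and 6 to 7 higher and 22 to 25 lower with 1 library left out. The members' median of -0.18 was -0.29 with equal totals, -0.35 with quantile normalization and -0.20 with edgeR, and ran from -0.20 to -0.16 with 1 library left out. The same total moved the median of all genes to -0.11, and relative to it the members' median was again -0.18. The shares of all tested genes that rose or fell under these alternatives are not reported here. The 3894 differentially expressed genes became 2170 with a minimum mean of 100, which tests fewer genes. Values that changed sign were close to 0. At the same total and after quantile normalization these were -0.0572 and -0.109 for Atg4b, -0.0756 and -0.108 for Atg12, -0.0437 and -0.0878 for Atg16l1, -0.0938 and -0.131 for Optn, -0.0862 and -0.0391 for Tfeb, -0.109 and -0.0714 for Ctsb and -0.0141 and -0.0458 for Gga3. Quantile normalization alone gave -0.00782 for Atg7, 0.0428 for Psap, -0.0343 for Atp6v1b2 and -0.00357 for Tbk1. With edgeR Optn was at -0.00486 and Ctsb at -0.0213, and with DESeq2 Ctsb was at -0.00416. With 1 library left out, Nbr1 ran from -0.0376 to 0.0157, Optn from -0.00955 to 0.0463, Tfeb from -0.0577 to 0.0898, Ctsb from -0.0221 to 0.0444 and Psap from -0.0679 to 0.00751. Among members Atg7 and Gla lost a call, and Ulk1, Ulk2, Nbr1, Optn, Mcoln1, Ctsb, Psap, Atg4b, Atg12 and Atg16l1 gained one toward lower levels, in at least 1 alternative. The last 3 gained it only with quantile normalization, which moved the median of all genes to -0.07. The cause was not tested.

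Replicate numbers were not taken as pairs, since same-numbered libraries had correlations of deviations of -0.0999, -0.105 and -0.0199. With a replicate block 3897 genes were differentially expressed, and of the members 7 rose, 22 fell and 3 were differentially expressed. Among the genes named from the other lists, Gga3 was not past the threshold with the block, at 0.10 (adjusted p = 0.0904 by limma). Cln3, the member with the fewest reads, has the largest standard error of the members, and Atp6v0d2 and Abcb9 rest on few reads. With 3 libraries per group and nothing stated on mice per library, the spread between animals is not known.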

Other observations

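Receptors and kinases of mitophagy and ER-phagy, which mark damaged mitochondria and endoplasmic reticulum for autophagy, fell in 9 of 15 cases and rose in 3. These are 60% and 20%, against 35.2% and 37.2% of all tested genes, and the median log2 fold change was -0.21. Retreg1, the ER-phagy receptor also known as FAM134B, had 3781, 4115 and 3869 normalized counts in the control libraries and 2158, 2199 and 2187 with dexamethasone. Its log2 fold change was -0.85 (adjusted p = 2.36e-15 by limma), and those of the mitochondrial kinase Pink1 and the ER-phagy receptor Tex264 were -0.47 and -0.39 (adjusted p = 1.34e-09 and 3.68e-09 by limma). Phb2, a receptor of the inner mitochondrial membrane, Bnip3l, also known as NIX, and the kinase Tbk1 rose by 0.44, 0.30 and 0.18 (adjusted p = 5.55e-11, 4.10e-07 and 0.000108 by limma), and 83.1% of the 75-base stretches of Bnip3l were found in no other gene. The call for Tbk1 was lost at the same total (adjusted p = 0.0866). Ccpg1, an ER-phagy receptor named after its value was seen and of which 60.2% of 75-base stretches were found in no other gene, was differentially expressed at few counts, with a log2 fold change of -1.14 (adjusted p = 0.00326 by limma). It had 26.6, 28.4 and 35.2 normalized counts in the control libraries and 14.3, 18.5 and 8.14 with dexamethasone. In all, 2 genes of this list were differentially expressed downward, or 13.3%, where 10.6% of all tested genes were. The lowest log2 fold change of the list was -2.70, for a gene not reported here.

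Enzymes reach the lysosome by the mannose 6-phosphate tag and its receptors or by sortilin. Of 12 genes of this sorting 5 fell and 2 rose, or 41.7% and 16.7%, against 35.2% and 37.2% of all tested genes. The median log2 fold change was -0.04. At the same total 10 fell and 1 rose, but that scaling also moved the median of all tested genes to -0.11. The shares of all tested genes that fell or rose at the same total are not reported here, so this count has no comparison. Sort1, the gene of sortilin, had 776, 762 and 765 normalized counts in the control libraries and 145, 139.5 and 145 with dexamethasone. Its log2 fold change of -2.41 (SE 0.0823, adjusted p = 1.21e-18 by limma) was the largest decrease of the list. Gnptab, the catalytic part of the enzyme that starts the tag, rose by 0.56 (adjusted p = 1.76e-12 by limma), while Gnptg, its gamma subunit, had a value of -0.36 (adjusted p = 5.43e-07 by limma), with 49.5% of its exon bases under Unkl on the opposite strand. Gga2, a sorting adaptor, fell, with a value of -0.31 (adjusted p = 1.06e-07 by limma), and Gga3, another adaptor, had a value of 0.10 (adjusted p = 0.0387 by limma), and was not past the threshold with edgeR (adjusted p = 0.0979) or DESeq2 (adjusted p = 0.0758).

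Markers of other cells were few. Summed CPM in the control and dexamethasone libraries were 12.7 to 13.5 and 13.3 to 15 for 8 neutrophil markers, 4.83 to 5.39 and 5.41 to 5.78 for 8 endothelial markers, and under 1 for the lymphocyte and the erythroid markers. In normalized counts the neutrophil sums were 983 to 1029 and 1095.5 to 1269. S100a8 rose by 0.87 (adjusted p = 8.74e-08 by limma), and 5 other neutrophil markers were not past the threshold. Most of the endothelial sum came from Kdr, which rose by 0.25 (adjusted p = 0.00812 by limma). Pecam1, at 11 to 31 reads, rose by 0.74 (adjusted p = 0.0419 by limma), and Tek and Egfl7 were not past the threshold. Cdh5, Tie1, Erg and Robo4 were too low to be tested. The adipocyte markers made up 0.357 to 0.464 and 16.8 to 18.3 CPM. Nearly all of this rise came from Fabp4, a fatty acid carrier, which went from a mean of 2.16 to 1448 normalized counts. Its log2 fold change was 8.85 (adjusted p = 2.84e-23 by limma). Pparg was not past the threshold at -0.00122 (adjusted p = 0.997 by limma), and Adipoq, Plin1, Lep and Cidec were too low to be tested. The part of these other cells in the levels of the autophagy and lysosome genes was not tested.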
